A study of Mus musculus with 15 samples.

Results

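F-box and cullin genes encode subunits of the cullin-RING ubiquitin ligases, and 79 of the 14392 genes in the expression table belonged to the set described here. They were taken by name as the rows starting with Fbxo, Fbxl or Fbxw, the rows starting with Cul and a digit, and Skp1a, Skp2, Rbx1 and Btrc, without Fbxo5 and Fbxo43. By role they were 6 cullins, 2 other core subunits (Skp1a and Rbx1), 18 leucine-rich-repeat F-box genes with Skp2 among them, 12 oocyte-type Fbxw genes, 9 other WD40-repeat F-box genes with Btrc among them, and 32 Fbxo genes, whose products carry other domains or none. Their expression was measured by RNA-seq in 8 libraries of mouse embryos, with 2 libraries in each of 4 groups.

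In a cullin-RING ligase the cullin is a long scaffold. One end of it holds a RING subunit, RBX1 or RNF7, which brings in the ubiquitin-charged E2 enzyme, and the other end holds an adaptor and a substrate receptor. In the SCF type (SKP1, CUL1, F-box protein) the adaptor SKP1 binds the F-box of the receptor, and the receptor chooses the protein to be marked. Attachment of NEDD8 switches the cullin on, the COP9 signalosome takes NEDD8 off, and CAND1 lets receptors be exchanged. In oocytes and early embryos such ligases are known for removing maternal proteins and for steps of meiosis.

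WT embryos were Usp16+/+. The cKO embryos came from Usp16 fl/fl; Gdf9-Cre mothers and WT fathers, and their genotype is labelled Usp16 maternal -/ paternal +, so each embryo had a paternal Usp16 allele. Gdf9-Cre recombines in oocytes from an early follicle stage, and all mice had a C57BL/6 background. Mothers were 21 to 23 days old and were superovulated with PMSG and hCG. Embryos were cultured in KSOM, and the zygotes were taken 28 h after hCG. No such time is given for the embryos of the 2-cell stage. The paper describes a longer stay at this stage for cKO embryos than for WT ones. A difference in progress within the stage could therefore go with genotype, and its part in the differences described below was not tested. Each library was a pool of 10 embryos, so fewer cells with a transcript and less of it per cell cannot be told apart. The labels do not say that the 2 libraries of a group came from different mothers. The p-values then measure only the spread between libraries, which may be technical. The spread of each gene was pooled over the 4 groups. A p-value or standard error of a comparison therefore does not measure the spread of its own libraries alone.

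Usp16, the deleted deubiquitinase, was at 184 and 187 FPKM in WT and 16.8 and 22 in cKO zygotes, then 168 and 183 in WT and 168 and 84.8 in cKO 2-cell embryos. Both cKO zygote libraries were far below WT, as their labels have it, although the adjusted p missed the threshold (log2 fold change -3.21, SE 0.34, adjusted p = 0.191, limma), and in the 2-cell embryos the cKO values lay under the WT values, replicate 1 by less than 1 FPKM. Summed FPKM was 547752 to 593317 in 7 libraries and 770989 in cKO 2-cell replicate 2, which therefore stood apart in this sum. Values are FPKM (fragments per kilobase of transcript, scaled to the mapped fragments of the library), a level per length. Every value under 1 had been set to 1, so 1 is a floor and not a measured level. Over all genes, 4242 to 4747 were at this floor in the zygote libraries. At the 2-cell stage 1642 and 1716 were in WT, and 3684 and 4240 in cKO. Both cKO 2-cell libraries thus held more floor values than the WT ones. The part of this in the lower calls described below was not tested. All 10 oocyte and embryo markers were measured, and their summed level was 16404 to 17793 FPKM in WT and 17585 to 17786 in cKO zygotes, then 6318 to 8099.9 in WT and 1349.7 to 3115 in cKO 2-cell embryos. The 7 measured markers of the 2-cell stage summed to 8.45 to 9.53 FPKM in WT and 9.51 to 12.0 in cKO zygotes, then 533 to 737 in WT and 285 to 325 in cKO 2-cell embryos. The 4 measured cumulus and granulosa cell markers of 10 summed to 25.3 to 29.7 FPKM in WT and 25.6 to 25.8 in cKO zygotes, nearly all of it Cyp19a1, then 33.9 to 43.0 in WT and 21.1 to 21.4 in cKO 2-cell embryos, most of it Amhr2. The sums of all 3 lists were thus lower in both cKO than in both WT 2-cell libraries, but not every marker was. In both cKO 2-cell libraries 6 of the 10 oocyte and embryo markers lay below both WT libraries, while Ooep, Gdf9 and Mos overlapped and Zp3 lay above, at 115 and 70.9 FPKM in WT and 116 and 149 in cKO. Of the 2-cell markers 6 of 7 lay below and Eif1a above, at 73.8 and 70.3 FPKM in WT and 118 and 139 in cKO. Of the cumulus and granulosa markers 3 of 4 lay below. The part of these markers in the differences described below was not tested.

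Of the 79 genes, 50 were above the floor in every library and 29 were at the floor in at least 1. The median gene had a mean of 9.45 FPKM in WT and 9.0 in cKO zygotes, then 14.2 in WT and 11.9 in cKO 2-cell embryos, against 3.54, 3.72, 7.30 and 4.37 for all genes. The set made up 2.26 to 2.94% of all FPKM in WT zygotes and 0.842 to 0.871% in WT 2-cell embryos, and most of the zygote share came from the oocyte-type Fbxw genes.

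These 12 genes (Fbxw13 to Fbxw16, Fbxw18 to Fbxw22, Fbxw24, Fbxw26 and Fbxw28) formed a tandem array on chromosome 9, all on the minus strand, from 109041968 to 109648603 in build mm9, a span of 607 kb. Fbxw17, which has a name in the same series, lies on chromosome 13 (50513246 to 50529138, plus strand). It shared no exact 50-base word with another protein-coding gene. Over 66 pairs of the 12 copies, coding sequences were 79.1 to 99.1% identical, with a median of 83.8%. The start of the coding sequence is shown for 4 copies because the array holds the largest falls of the set and because copies this alike can exchange reads. The first 120 coding bases are given in the sense direction, with capitals at the 14 positions where the 4 copies are not all alike, from transcripts of the mm9 annotation.
Fbxw14: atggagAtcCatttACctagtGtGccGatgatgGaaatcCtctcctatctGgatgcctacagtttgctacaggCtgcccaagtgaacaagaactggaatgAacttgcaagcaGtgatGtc
Fbxw28: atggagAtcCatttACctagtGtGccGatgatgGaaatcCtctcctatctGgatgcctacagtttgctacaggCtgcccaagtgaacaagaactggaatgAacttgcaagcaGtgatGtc
Fbxw24: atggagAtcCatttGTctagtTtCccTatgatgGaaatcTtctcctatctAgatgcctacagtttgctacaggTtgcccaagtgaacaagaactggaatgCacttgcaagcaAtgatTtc
Fbxw22: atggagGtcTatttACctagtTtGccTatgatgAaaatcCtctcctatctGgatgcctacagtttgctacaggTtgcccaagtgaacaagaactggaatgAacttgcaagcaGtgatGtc
Fbxw14 and Fbxw28, which lie next to each other, were the same over this stretch. Their transcripts were cut into all words of 50 bases, the length to which the reads had been trimmed. Of these words, 67.0% of Fbxw14 and 67.3% of Fbxw28 occurred in another protein-coding gene. The split of reads between these copies is therefore uncertain, and their levels are best read as a pair. The other 10 copies shared 3.34 to 13.1% of their words with any other protein-coding gene. Only exact words in protein-coding transcripts were searched, so non-coding genes and matches with a mismatch were not counted. The shares given here are therefore lower bounds. Among the 67 genes outside the array, 5 shared over 10%: Fbxw8, Fbxl12, Fbxl15, Fbxo22 and Fbxl2. Each of these, and Fbxw4, has exons that overlap exons of a gene on the opposite strand, and reads of the 2 strands cannot be told apart in such libraries.

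The copies also resemble each other in front of the gene. RefSeq promoter windows (GRCm38.p6, 250 bases before and 50 after the start) were matched by symbol for 59 of the 79 genes, among them 10 of the 12 copies (all but Fbxw13 and Fbxw22), and over the 45 pairs they were 60.7 to 96.4% identical, with a median of 83.2%. A link between these sequences and the levels of the copies was not tested. The stretch from 120 bases before the annotated start to 5 bases from it on is shown for 4 copies and for Fbxw17. Capitals mark the hexamers TTTAAA and CAGCTG.
Fbxw28 (chr9:109339655-109339779, minus strand): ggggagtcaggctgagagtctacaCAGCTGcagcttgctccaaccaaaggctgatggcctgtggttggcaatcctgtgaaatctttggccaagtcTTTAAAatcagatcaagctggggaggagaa
Fbxw24 (chr9:109626055-109626179, minus strand): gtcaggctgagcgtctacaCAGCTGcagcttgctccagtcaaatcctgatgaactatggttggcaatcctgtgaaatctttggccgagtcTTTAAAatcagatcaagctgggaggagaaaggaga
Fbxw16 (chr9:109449136-109449260, minus strand): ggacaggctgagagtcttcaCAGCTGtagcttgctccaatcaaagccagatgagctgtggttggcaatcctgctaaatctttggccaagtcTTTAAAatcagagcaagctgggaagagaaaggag
Fbxw20 (chr9:109234750-109234874, minus strand): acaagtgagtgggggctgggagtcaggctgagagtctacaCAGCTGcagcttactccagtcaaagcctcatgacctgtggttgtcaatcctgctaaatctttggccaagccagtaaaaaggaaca
Fbxw17 (chr13:50417744-50417868, plus strand): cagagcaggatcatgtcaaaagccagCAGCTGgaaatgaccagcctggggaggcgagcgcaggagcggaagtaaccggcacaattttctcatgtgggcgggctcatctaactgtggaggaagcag
Both strands of the 300-base windows were searched, and the hexamers do not overlap each other. TTTAAA was found in 9 of the 10 copies, with Fbxw20 the exception, in 7 of the 49 other matched members and in 13.2% of 27025 promoters. In the window from 45 to 15 bases before the start it was in 7 of the 10 copies against 1.67% of all promoters. The TATA-box letters TATAAA were in none of the 10 and in 14.2% of all promoters. CAGCTG, one form of the E-box CANNTG, was in all 10 copies, in 9 of the 49 other members and in 16.1% of all promoters. The copies share their descent, so they are not independent of each other, and a match is a description of letters only.

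The first comparison asked how these genes change as WT embryos pass from the zygote, which lives on maternal transcripts, to the 2-cell stage, when the mouse genome is activated. Fbxw24 had the highest level of the array. It was at 4087 and 2677 FPKM in WT zygotes and 425 and 432 in WT 2-cell embryos, and it fell by 2.95 on the log2 scale (SE 0.28, adjusted p = 0.000416, limma). Both WT 2-cell libraries lay far below both WT zygote libraries, and the same held for each of the other 11 copies. Log2 fold changes and tests come from limma on log2(FPKM + 1), on which the change of a gene with low values is understated, with Benjamini-Hochberg adjustment over the 14392 genes, and a gene was called at an adjusted p under 0.05.

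Fbxw28 was at 1207 and 723 FPKM in WT zygotes and 94.5 and 81.6 in WT 2-cell embryos. Fbxw14, its near-identical neighbour, was at 998 and 608 FPKM in WT zygotes and 114 and 99.6 in WT 2-cell embryos. Fbxw22 showed the largest fall, from 584 and 388 to 41.6 and 30.8 FPKM (log2 fold change -3.70, SE 0.28, adjusted p = 0.000219), and Fbxw13, with 48.1 and 29.6 FPKM in WT zygotes and 11.6 and 13.9 in WT 2-cell embryos, the smallest (log2 fold change -1.50, SE 0.29, adjusted p = 0.00623). All 12 copies were called lower, where 15.5% of all genes were, with log2 fold changes of -3.70 to -1.50 and a median of -2.78. Little is known of what the single copies do, beyond their restriction to the oocyte. Some of the calls rested on single libraries. Fbxw16 was not called without WT 2-cell replicate 2 (adjusted p = 0.0576), and Fbxw21 was not without the same library (adjusted p = 0.0531). Fbxw19 was not called without WT zygote replicate 1 (adjusted p = 0.0603), WT 2-cell replicate 1 (0.0834) or WT 2-cell replicate 2 (0.0566).

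Summed over the 12 copies, the array took 1.90 and 1.27% of all FPKM in WT and 1.44 and 1.30% in cKO zygotes, then 0.232 and 0.233% in WT and 0.106 and 0.116% in cKO 2-cell embryos. WT zygote replicate 1 was higher than replicate 2 for all 12 copies, by 1.36 to 1.81 times, while the summed FPKM of these libraries was 592286 and 557515. The cause of this difference was not tested. In the plot by library, the whole array shifts down between the stages.

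**Figure D1:**
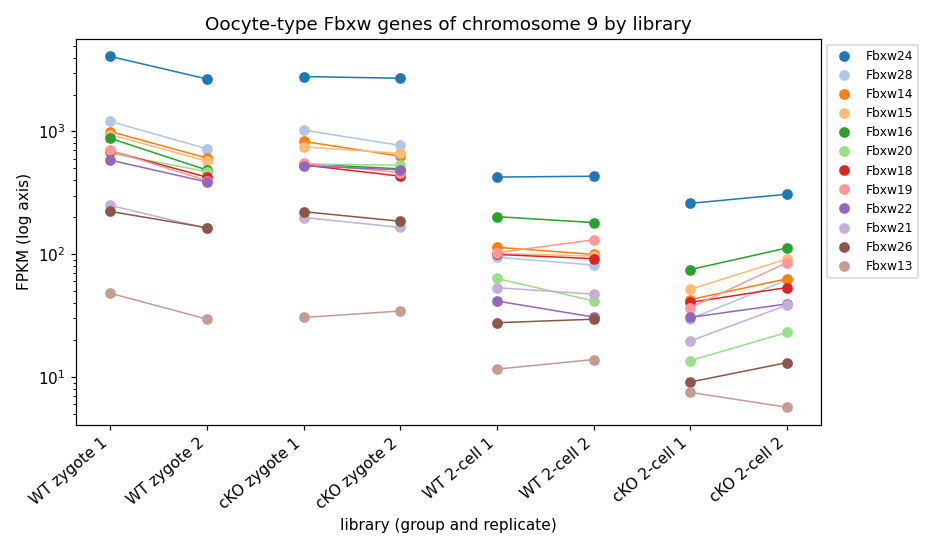
FPKM on a log axis of the 12 oocyte-type Fbxw genes in each of the 8 libraries, with a line joining the 2 libraries of a group. All copies were lower in both WT 2-cell libraries than in both WT zygote libraries, from 4087 and 2677 to 425 and 432 FPKM for Fbxw24. In both cKO 2-cell libraries 11 of 12 were lower again, where 43.4% of all genes were below WT.

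Among the scaffolds, Cul3, which binds BTB-domain receptors instead of F-box proteins, rose most. It was at 16.3 and 17.9 FPKM in WT and 15.2 and 14.6 in cKO zygotes, then 253 and 329.8 in WT and 547 and 429 in cKO 2-cell embryos. Both 2-cell groups lay above every zygote library, by 17.1-fold in the WT means (log2 fold change 4.0, SE 0.22, adjusted p = 0.000105), and the call held in all 8 fits that each left out 1 library. Cul1, the SCF scaffold, was at 407 and 437 FPKM in WT and 439 and 443 in cKO zygotes, then 293 and 308 in WT and 146 and 94 in cKO 2-cell embryos. It was the most abundant cullin in zygotes and was not called between the WT stages (log2 fold change -0.49, SE 0.25, adjusted p = 0.154), although both WT 2-cell libraries were below both WT zygote libraries. Cul2, the scaffold of VHL-type ligases, was at 9.18 and 9.72 FPKM in WT and 7.83 and 9.03 in cKO zygotes, then 12.6 and 16.7 in WT and 50.1 and 34 in cKO 2-cell embryos and was not called between the WT stages (log2 fold change 0.57, SE 0.26, adjusted p = 0.12). Cul5, the scaffold of SOCS-box ligases, was at 29 and 34.6 FPKM in WT and 31.6 and 37.7 in cKO zygotes, then 22.1 and 21.3 in WT and 52.7 and 31.2 in cKO 2-cell embryos (log2 fold change -0.53, SE 0.28, adjusted p = 0.171 between the WT stages). For neither gene did the WT stages overlap.

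Cul4a and Cul4b are paralogous scaffolds that use DDB1 as adaptor. Cul4a was at 2.99 and 5.11 FPKM in WT and 3.23 and 4.03 in cKO zygotes, then 3.76 and 5.19 in WT and 2.45 and 1 in cKO 2-cell embryos, and its WT stage difference was 0.14 on the log2 scale with an adjusted p of 0.785. Cul4b was at 84.7 and 143 FPKM in WT and 109 and 136 in cKO zygotes, then 57.7 and 63.7 in WT and 60.1 and 42.9 in cKO 2-cell embryos (log2 fold change -0.85, SE 0.31, adjusted p = 0.0645). The libraries of the WT stages overlapped for Cul4a and not for Cul4b. By FPKM, a level per length, Cul4b was above Cul4a in each of the 8 libraries.

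Skp1a, the adaptor of every SCF ligase, was the most abundant core gene, at 3988 and 3487 FPKM in WT and 4618 and 4232 in cKO zygotes, then 1102 and 718 in WT and 441 and 443 in cKO 2-cell embryos. It fell between the WT stages (log2 fold change -2.07, SE 0.29, adjusted p = 0.0018), and no library of one stage reached the range of the other. Rbx1, the RING subunit, was at 506 and 367 FPKM in WT and 429 and 431 in cKO zygotes, then 155 and 113 in WT and 160.0 and 375 in cKO 2-cell embryos. It also fell between the WT stages (log2 fold change -1.69, SE 0.43, adjusted p = 0.018), a call lost in 4 of 8 fits that each left out 1 library (adjusted p = 0.0531 to 0.129 there): those without either WT zygote library or either WT 2-cell library. Without either cKO 2-cell library, which leaves the WT values as they are, Cul1 (adjusted p = 0.0122 and 0.0124) and Cul5 (0.0341 and 0.0339) were called lower between the WT stages and Cul2 (0.044 and 0.0439) higher. Cul4b was called lower without WT zygote replicate 1 (adjusted p = 0.0343). After each library was divided by its median ratio to the others, Cul1 (adjusted p = 0.0115), Cul4b (0.0311) and Cul5 (0.0272) were called lower. The plot of the core genes shows Cul3 rising and Skp1a falling between the stages.

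**Figure D2:**
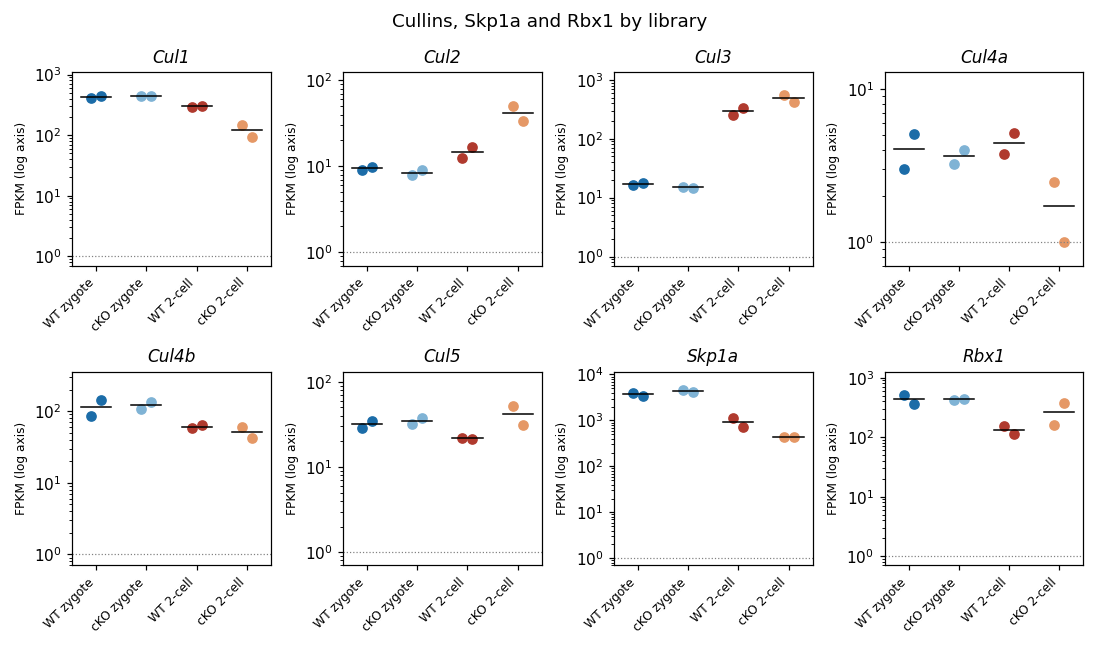
FPKM on a log axis of the 6 cullins, Skp1a and Rbx1, with 1 point per library, a black line at the mean of each group of 2 libraries and a dotted line at the floor of 1 FPKM. Cul3 rose from 16.3 and 17.9 to 253 and 330 FPKM between the WT stages, Skp1a fell from 3988 and 3487 to 1102 and 718, and Cul1 was at 146 and 94.0 in cKO 2-cell embryos.

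Of all 79 genes, 23 (29.1%) were called lower and 18 (22.8%) higher in WT 2-cell embryos, where the shares of all 14392 genes were 15.5% lower and 34.2% higher. The median change was 0.00 against 0.27 for all genes on the log2 scale. Division of each library by its median ratio to the others moved the median of all genes to 0.03 and that of the members to -0.25. Of the members 29 were then called lower and 15 higher, and the shares of all genes called there are not given. The 12 array genes and both core subunits made up 14 of the 23 that fell. The other 9 were 6 of 32 Fbxo genes, 1 of 18 Fbxl genes and 2 of 9 other Fbxw genes. Of these, Fbxo28, at 59.1 and 58.2 FPKM in WT zygotes and 9.47 and 10.3 in WT 2-cell embryos, fell most (log2 fold change -2.46, SE 0.40, adjusted p = 0.00318). Fbxw17 was at 4.39 and 2.59 FPKM in WT zygotes and 1 and 1 in WT 2-cell embryos, which is the floor at the later stage (log2 fold change -1.14, SE 0.19, adjusted p = 0.00385). Fbxw8, the receptor that pairs with CUL7, was at 4.27 and 3.38 FPKM in WT zygotes and 1.13 and 1.21 in WT 2-cell embryos (log2 fold change -1.14, SE 0.16, adjusted p = 0.00193). Fbxo28 was chosen for naming after its values were seen. The calls of Fbxo28 and Fbxw8 held with each library left out. That of Fbxw17 did too, but its floor values do not vary. Its spread is therefore understated, and its call is no sign of robustness.

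The 18 genes that rose were 12 Fbxo genes, 3 Fbxl genes, 2 other Fbxw genes and Cul3. Fbxo15, long known as a gene active in embryonic stem cells, was at 35 and 31.3 FPKM in WT and 32.2 and 32.3 in cKO zygotes, then 526 and 615 in WT and 1569 and 1753 in cKO 2-cell embryos. Each 2-cell library was more than 10 times above each zygote library (log2 fold change 4.06, SE 0.18, adjusted p = 8.69e-05 in WT). Fbxo6, a receptor for glycoproteins with high-mannose N-glycans, was at the floor of 1 FPKM in all 4 zygote libraries and at 37.2 and 37 FPKM in WT and 20.4 and 78.4 in cKO 2-cell embryos. In WT it was at least 37.1-fold higher at the 2-cell stage (log2 fold change 4.25, SE 0.57, adjusted p = 0.00158). The cKO 2-cell libraries lay on either side of the WT ones.

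Fbxw9, a WD40-repeat F-box gene, was at the floor in all 4 zygote libraries and at 17.7 and 17.6 FPKM in WT and 10.9 and 8.33 in cKO 2-cell embryos, at least 17.7-fold higher in WT 2-cell embryos (log2 fold change 3.22, SE 0.21, adjusted p = 0.000149). Fbxw2 went from 2.14 and 2.60 FPKM in WT zygotes to 29.2 and 29.5 in WT 2-cell embryos (log2 fold change 3.18, SE 0.26, adjusted p = 0.00026). Fbxo16 went from 3.97 and 5.60 to 56.1 and 39.96 FPKM (log2 fold change 3.08, SE 0.38, adjusted p = 0.00115). None of these 3 had overlapping WT stages. Skp2, the receptor for the cell-cycle inhibitor p27, was at 8.24 and 7.90 FPKM in WT and 6.40 and 7.31 in cKO zygotes, then 43.1 and 39.1 in WT and 60.9 and 41.1 in cKO 2-cell embryos and was called higher (log2 fold change 2.21, SE 0.24, adjusted p = 0.000682). Btrc, the receptor for beta-catenin and IkappaB, was at 14.6 and 9.93 FPKM in WT and 12.2 and 9.45 in cKO zygotes, then 4.28 and 4.76 in WT and 10.9 and 3.70 in cKO 2-cell embryos and was not called (log2 fold change -1.24, SE 0.46, adjusted p = 0.0672), although its WT stages did not overlap. It was called lower without cKO 2-cell replicate 1 (adjusted p = 0.0118) or 2 (0.0117), and after median-ratio scaling (0.0331).

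At the floor in all 4 zygote libraries were 10 of the 79 genes, against 3770 of all 14392 genes. The 10 were Fbxl15, Fbxl18, Fbxo2, Fbxo4, Fbxo27, Fbxo31, Fbxo44, Fbxo48, Fbxo6 and Fbxw9. Of them, 9 were above it in both WT 2-cell libraries, and 5 of the 9 were called higher (Fbxo27, Fbxo44, Fbxo48, Fbxo6 and Fbxw9). Of all genes 34.2% were called higher, but the 9 were chosen by their 2-cell values, so these shares cannot be compared. The zygote values of the 9 are all at the floor and do not vary, so the spread of these genes is understated. Fbxo48 lost the call after median-ratio scaling (log2 fold change 0.15, adjusted p = 0.332, limma). That scaling includes a reset of low values to the floor, and Fbxo48 was near the floor at the 2-cell stage. In both cKO 2-cell libraries Fbxo2 and Fbxo44 were at the floor, and Fbxl15, Fbxo27 and Fbxo48 were at it in 1 of the libraries. Fbxo6 and the related genes Fbxo2, Fbxo17, Fbxo27 and Fbxo44 were grouped here after their values were seen. This Fbxo6 group was at or near the floor in every zygote library, with sums of 5.21 to 5.71 FPKM over its 5 genes. In WT 2-cell embryos the sums were 61.3 and 63.4 FPKM and 4 of the 5 were called higher, all but Fbxo2, where 34.2% of all genes were. In cKO 2-cell embryos they were 29.9 and 101.1 FPKM, and most of that spread lay in Fbxo6, while Fbxo17 was at 6.56 and 18.5 FPKM. The plot of the stage changes shows the array at one end and the Fbxo genes at the other.

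**Figure D3:**
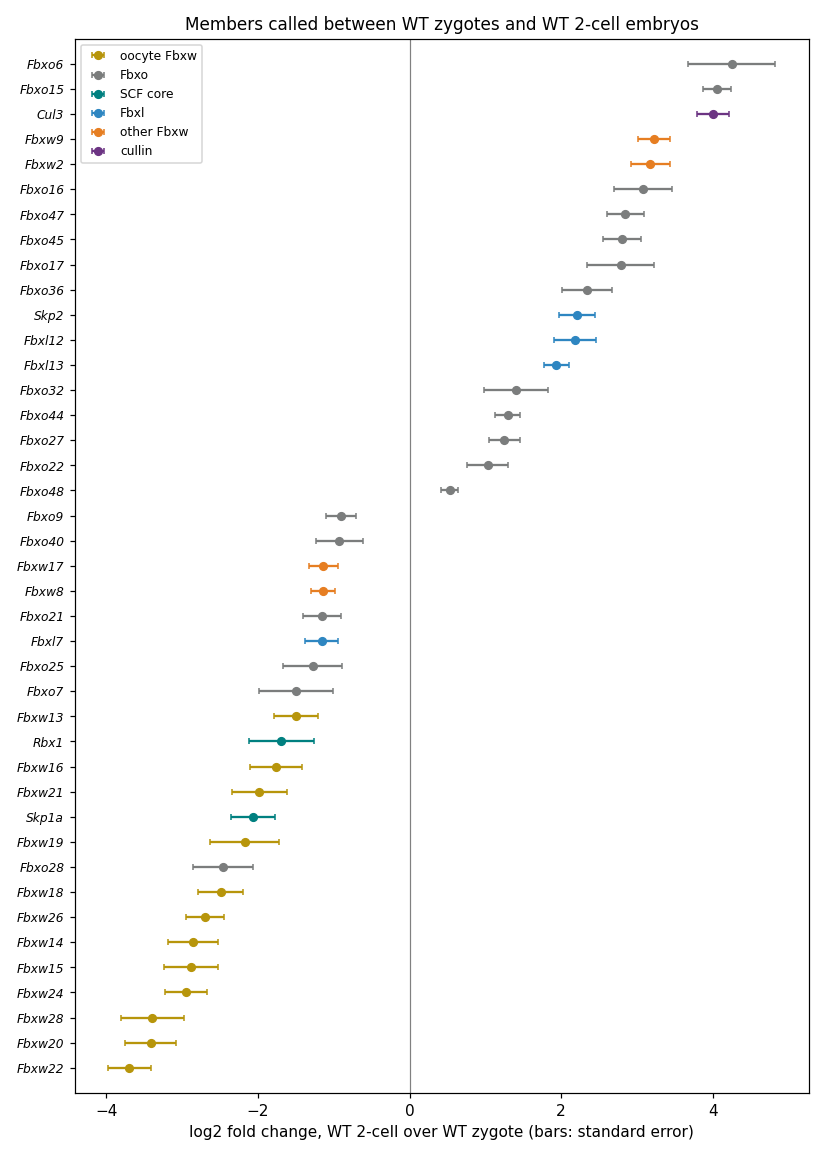
Log2 fold change (WT 2-cell over WT zygote, bars give the standard error) of the 41 genes called by limma, coloured by role. The 23 that fell run from -3.70 (Fbxw22) to -0.91 (Fbxo9) and include all 12 oocyte-type Fbxw genes, and the 18 that rose run from 0.53 (Fbxo48) to 4.25 (Fbxo6).

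The second comparison asked what the loss of maternal Usp16 did in zygotes. No gene of the set was called, against 0.0% of all genes lower and 0.0208% higher, and none had an unadjusted p under 0.05, where 408 of all genes did. The median change was -0.03 on the log2 scale, and single genes lay between -0.71 and 0.42. Fbxw4, at 201 and 106 FPKM in WT and 90.3 and 87.7 in cKO zygotes, had the largest decrease by value (log2 fold change -0.71, SE 0.36, adjusted p = 1). The cKO pair lay under the WT pair, whose 2 libraries differed by more than the group means did. Fbxo16, at 3.97 and 5.60 FPKM in WT and 7.44 and 5.94 in cKO zygotes, had the largest increase by value (log2 fold change 0.42, SE 0.38, adjusted p = 1), and its groups did not overlap. Of the other genes with the smallest unadjusted p, Fbxw8 was at 2.73 and 2.61 FPKM and Fbxo9, a receptor for TEL2 and TTI1, at 29.5 and 35.5 FPKM in cKO zygotes, both below WT by value (-0.39 and -0.34). Fbxw2 was at 2.72 and 3.63 and Fbxo10 at 1.49 and 1.01 FPKM in cKO zygotes (0.30 and 0.11 on the log2 scale). With 2 libraries against 2, an exact permutation test of a single gene cannot give a two-sided p below 0.333. The deleted gene Usp16 was not called in zygotes either, so the lack of calls does not show that these genes were unchanged.

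The third comparison set cKO against WT 2-cell embryos. Here 22 of the 79 genes (27.8%) were called lower, where 24.6% of all genes were, and 5 (6.33%) were called higher, where 6.16% of all genes were. Both shares were close to those of all genes. The median change was -0.46 on the log2 scale against -0.30 for all genes. After median-ratio scaling, which brought the median of all genes to 0.00, that of the members was -0.10, and 10 genes were called in each direction. The shares of all genes called after scaling are not given here, so these counts cannot be set against them. In 42 genes (53.2%) both cKO libraries were below both WT libraries, against 43.4% of all genes, and in 12 (15.2%) both were above, against 14.0%. By the ratio of group means, 10 genes (12.7%) were over 3-fold lower, against 13.5% of all genes, and 0 were over 3-fold higher, against 2.84%. All 10 were among the 22.

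The lower calls were 7 of 18 Fbxl genes, 7 of 32 Fbxo genes, 3 of 9 other Fbxw genes, 3 of 12 array genes, Cul1 and Skp1a. Of the 22, 13 were called in neither direction between the WT stages, 5 had fallen and 4 had risen. Of the same 22, 7 were called in each of the 8 fits that left out 1 library, namely Fbxl2, Fbxl4, Fbxl5, Fbxl7, Fbxo44, Fbxo8 and Fbxw4. The count was 14 without either cKO zygote library, 11 without WT 2-cell replicate 1 and 12 without WT 2-cell replicate 2. After median-ratio scaling 10 of the 22 were still called, namely Cul1, Fbxl2, Fbxl4, Fbxl14, Fbxo8, Fbxo18, Fbxo42, Fbxo44, Fbxw4 and Fbxw5, and none of the 22 changed direction there. With weights per group 2 were called, Fbxo18 and Fbxo44, and in a fit of the 2-cell libraries alone 0 were, with 24 at an unadjusted p under 0.05 (limma). Fbxo44 was at the floor in 6 of the 8 libraries and Fbxl7 in 2. Values set to the floor do not vary, so the spread of these genes is understated. Their calls in the fits above are therefore no sign of robustness.

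Fbxw4 (dactylin, the gene at the mouse Dactylaplasia locus) changed most. It was at 148 and 103 FPKM in WT and 16.3 and 22.4 in cKO 2-cell embryos, 6.47-fold lower by means (log2 fold change -2.62, SE 0.36, adjusted p = 0.00483). The lowest WT library was over 4 times above the highest cKO library. Exons of Gm17018 on the opposite strand cover 20.7% of its exon bases. Fbxo18, a helicase with an F-box also known as FBH1, was at 23.9 and 15.9 FPKM in WT and 2.18 and 5.18 in cKO 2-cell embryos (log2 fold change -2.21, SE 0.36, adjusted p = 0.00769). The groups did not overlap, and the call was lost without WT 2-cell replicate 1 (adjusted p = 0.0519). Fbxo8, an F-box gene with a Sec7 domain, was at 150.0 and 125 FPKM in WT and 36.7 and 37.4 in cKO 2-cell embryos (log2 fold change -1.86, SE 0.20, adjusted p = 0.0025), and it had been at 117 and 142 FPKM in WT zygotes, so that WT libraries of both stages lay above the cKO 2-cell libraries.

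Fbxw5, a receptor known for the centriole protein SAS6, was at 6.95 and 7.90 FPKM in WT and 2.03 and 1 in cKO 2-cell embryos, with 1 cKO library at the floor (log2 fold change -1.77, SE 0.32, adjusted p = 0.0104). Its call was lost without WT 2-cell replicate 1 (adjusted p = 0.0539) or replicate 2 (0.0671). Fbxl4, a mitochondrial protein that restrains mitophagy, was at 8.39 and 13 FPKM in WT and 3.41 and 2.26 in cKO 2-cell embryos (log2 fold change -1.60, SE 0.29, adjusted p = 0.0105). Its groups did not overlap. Fbxo44 was at 3.10 and 4.86 FPKM in WT and 1 and 1 in cKO 2-cell embryos and was at least 3.98-fold lower, the cKO value being the floor (log2 fold change -1.29, SE 0.16, adjusted p = 0.00375).

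Of the 6 other Fbxl genes that were lower, 5 follow, named with their values known. Fbxl5, the iron-sensing receptor for IRP2, was at 109 and 83.1 FPKM in WT and 35.2 and 42.3 in cKO 2-cell embryos (log2 fold change -1.28, SE 0.22, adjusted p = 0.00873). Fbxl2, a geranylgeranylated receptor for a PI3-kinase subunit, was at 7.24 and 7.14 FPKM in WT and 3.49 and 2.84 in cKO 2-cell embryos (log2 fold change -0.98, adjusted p = 0.0166, limma). Fbxl7 was at 2.93 and 3.79 FPKM in WT and 1 and 1 in cKO 2-cell embryos, at the floor in both cKO libraries (log2 fold change -1.12, adjusted p = 0.0135, limma). None of these 3 had overlapping groups. Fbxl14, a receptor for Snail, was at 6.23 and 5.46 FPKM in WT and 2.09 and 1.57 in cKO 2-cell embryos (log2 fold change -1.28, SE 0.24, adjusted p = 0.0123). Its call was lost without WT 2-cell replicate 1 (adjusted p = 0.0529). Fbxl17, a receptor for unpaired BTB domains, was at 5.74 and 5.54 FPKM in WT and 1.12 and 2.26 in cKO 2-cell embryos (log2 fold change -1.34, SE 0.27, adjusted p = 0.0138). Its call was lost without either WT 2-cell library (adjusted p = 0.0594 to 0.0629).

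The remaining genes called lower are also named with their values known. Fbxl12, whose exons overlap those of Ubl5 on the opposite strand over 37.1% of their bases, was at 25.6 and 29.9 FPKM in WT and 10.3 and 13.6 in cKO 2-cell embryos (log2 fold change -1.16, SE 0.28, adjusted p = 0.0243). Fbxo42, a receptor for p53, was at 16.4 and 21 FPKM in WT and 9.40 and 5.14 in cKO 2-cell embryos (log2 fold change -1.29, SE 0.30, adjusted p = 0.0217). Fbxo34 was at 115 and 110.2 FPKM in WT and 58.9 and 47.2 in cKO 2-cell embryos (log2 fold change -1.08, SE 0.24, adjusted p = 0.0203). In all 3 the groups were apart. The call of Fbxl12 was lost without either WT 2-cell library, cKO 2-cell replicate 1 or either cKO zygote library (adjusted p = 0.053 to 0.111), that of Fbxo42 without any one WT library or cKO zygote library (0.0517 to 0.11), and that of Fbxo34 without either WT 2-cell library or cKO 2-cell replicate 2 (0.0555 to 0.0869). Fbxo3 was at 4.73 and 2.66 FPKM in WT and 1.08 and 1 in cKO 2-cell embryos, with 1 cKO library at the floor (log2 fold change -1.17, SE 0.32, adjusted p = 0.0369). Fbxo27, of the Fbxo6 group, was at 3.61 and 3.93 FPKM in WT and 1 and 2.16 in cKO 2-cell embryos, also with 1 cKO library at the floor (log2 fold change -0.92, SE 0.21, adjusted p = 0.0201). Fbxw9 was at 17.7 and 17.6 FPKM in WT and 10.9 and 8.33 in cKO 2-cell embryos (log2 fold change -0.82, SE 0.21, adjusted p = 0.03), so its cKO level remained above the zygote floor in both libraries. The call of Fbxo3 was lost without any one library except WT 2-cell replicate 2 (adjusted p = 0.056 to 0.147). Those of Fbxo27 (adjusted p = 0.0503 to 0.121) and Fbxw9 (0.0556 to 0.0781) were lost without any one library except the cKO 2-cell ones.

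The SCF scaffold and adaptor were both lower. Cul1 was at 293 and 308 FPKM in WT and 146 and 94 in cKO 2-cell embryos (log2 fold change -1.35, SE 0.25, adjusted p = 0.0111), with both cKO libraries below all 6 other libraries, and its call was lost without WT 2-cell replicate 2 (adjusted p = 0.0558). Skp1a was at 1102 and 718 FPKM in WT and 441 and 443 in cKO 2-cell embryos (log2 fold change -1.01, SE 0.29, adjusted p = 0.0434). Its groups did not overlap, but the call was lost in 8 of 8 fits that each left out 1 library (adjusted p = 0.053 to 0.181 there). Rbx1 was at 155 and 113 FPKM in WT and 160.0 and 375 in cKO 2-cell embryos and was not called (log2 fold change 0.88, SE 0.43, adjusted p = 0.174), with cKO replicate 2 well above replicate 1, and it was called higher without cKO 2-cell replicate 1 (adjusted p = 0.0191). Cul4a was at 3.76 and 5.19 FPKM in WT and 2.45 and 1 in cKO 2-cell embryos and was not called (log2 fold change -1.05, SE 0.35, adjusted p = 0.0681), except without cKO 2-cell replicate 1 (adjusted p = 0.0299). Cul4b was at 57.7 and 63.7 FPKM in WT and 60.1 and 42.9 in cKO 2-cell embryos and was not called (log2 fold change -0.25, SE 0.31, adjusted p = 0.576).

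Cul2 and Cul3 went the other way. Cul2 was at 12.6 and 16.7 FPKM in WT and 50.1 and 34 in cKO 2-cell embryos, 2.87-fold higher by means (log2 fold change 1.45, SE 0.26, adjusted p = 0.0106), and it was called in all 8 fits that left out 1 library. Cul3 was at 253 and 329.8 FPKM in WT and 547 and 429 in cKO 2-cell embryos (log2 fold change 0.74, SE 0.22, adjusted p = 0.0456), a call lost in 6 of 8 fits that each left out 1 library (adjusted p = 0.0771 to 0.122 there), namely those without any one zygote library, WT 2-cell replicate 1 or cKO 2-cell replicate 1. Cul5 was at 22.1 and 21.3 FPKM in WT and 52.7 and 31.2 in cKO 2-cell embryos and was not called (log2 fold change 0.88, SE 0.28, adjusted p = 0.0606), with no overlap of the groups. It was called higher without cKO 2-cell replicate 2 (adjusted p = 0.0101) and after median-ratio scaling (0.0144).

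On the Fbxo side, 3 genes were higher. Fbxo15 was at 526 and 615 FPKM in WT and 1569 and 1753 in cKO 2-cell embryos, 2.91-fold higher by means (log2 fold change 1.54, SE 0.18, adjusted p = 0.00325), and was called in all 8 fits that left out 1 library. Fbxo33, a receptor for the cold-shock protein YB-1, was at 38.4 and 34.1 FPKM in WT and 109 and 77.7 in cKO 2-cell embryos (log2 fold change 1.32, SE 0.37, adjusted p = 0.0385), a call lost in 8 of 8 fits that each left out 1 library (adjusted p = 0.0504 to 0.183 there). Fbxo22, a receptor for the histone demethylase KDM4A, was at 16.7 and 10.1 FPKM in WT and 28.3 and 25.9 in cKO 2-cell embryos (log2 fold change 1.0, SE 0.27, adjusted p = 0.0366), a call lost in 7 of 8 fits that each left out 1 library (adjusted p = 0.061 to 0.0807 there), all but the one without WT 2-cell replicate 1. The groups did not overlap for any of the 3. Of the 5 genes that were higher, Cul3, Fbxo15 and Fbxo22 had also risen between the WT stages (Fbxo22 not after median-ratio scaling, adjusted p = 0.0664), and all 5 were called after median-ratio scaling. The plot of single F-box genes shows the higher and the lower kind side by side.

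**Figure D4:**
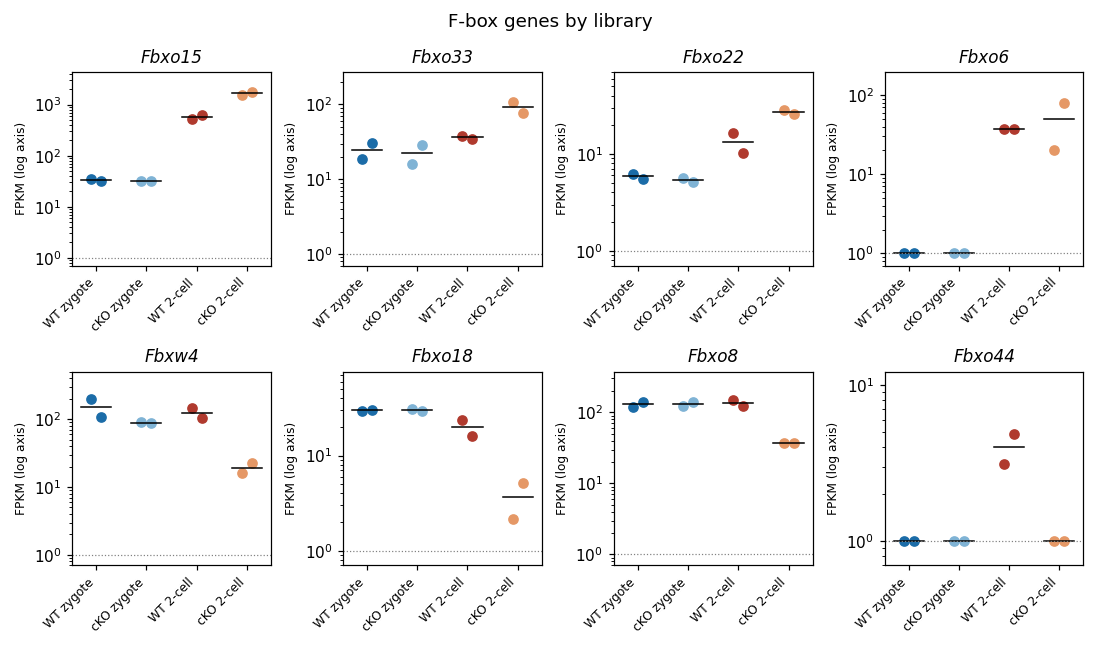
FPKM on a log axis of 8 F-box genes, with 1 point per library, a black line at the mean of each group of 2 libraries and a dotted line at the floor of 1 FPKM. Fbxo15, Fbxo33 and Fbxo22 were higher in both cKO 2-cell libraries than in both WT ones, Fbxw4, Fbxo18, Fbxo8 and Fbxo44 were lower, and the cKO libraries of Fbxo6, at 20.4 and 78.4 FPKM, lay on either side of the WT ones.

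In the array, 11 of the 12 copies were below WT in both cKO 2-cell libraries, where 43.4% of all genes were. The exception was Fbxw22, at 41.6 and 30.8 FPKM in WT and 30.6 and 39.4 in cKO 2-cell embryos. Of the 11 copies, 3 were called, where 24.6% of all genes were called lower, and none of these calls was kept after median-ratio scaling (adjusted p = 0.309 for Fbxw18, 0.146 for Fbxw20 and 0.1 for Fbxw26). Fbxw20 was at 63.4 and 41.7 FPKM in WT and 13.6 and 23 in cKO 2-cell embryos (log2 fold change -1.49, SE 0.34, adjusted p = 0.0217). Fbxw26 was at 27.7 and 29.6 FPKM in WT and 9.09 and 13.1 in cKO 2-cell embryos (log2 fold change -1.31, SE 0.25, adjusted p = 0.0128). Fbxw18 was at 99.6 and 92 FPKM in WT and 40.5 and 53.5 in cKO 2-cell embryos (log2 fold change -1.02, SE 0.30, adjusted p = 0.0445). The call of Fbxw20 was lost without either cKO zygote library, either WT 2-cell library or cKO 2-cell replicate 1 (adjusted p = 0.0516 to 0.12). That of Fbxw26 was lost without WT 2-cell replicate 1 (adjusted p = 0.0568) or 2 (0.0677), and that of Fbxw18 without any one library except the WT zygotes (adjusted p = 0.055 to 0.173). Fbxw19, Fbxw21 and Fbxw28 were called lower without cKO 2-cell replicate 2 (adjusted p = 0.0397, 0.0357 and 0.0412), and Fbxw16 without either WT zygote library (0.0478 and 0.0485). Over the 12 copies the median change was -1.02 on the log2 scale. Fbxw24, the copy with the highest 2-cell means, was at 259.7 and 308 FPKM in cKO and was not called (-0.60, adjusted p = 0.155, limma). The summed oocyte markers, given above, were also lower in both cKO 2-cell libraries. Most of that sum lay in Oosp1 and Btg4. Of the 10 markers 6 lay below WT, 3 overlapped and 1 lay above. The part of such a change in the array was not tested.

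Several well-known receptors were called in neither direction at the 2-cell stage. Skp2 was at 43.1 and 39.1 FPKM in WT and 60.9 and 41.1 in cKO 2-cell embryos (log2 fold change 0.28, SE 0.24, adjusted p = 0.409), and it was called higher without cKO 2-cell replicate 2 (adjusted p = 0.0398) and after median-ratio scaling (0.0225). Btrc was at 4.28 and 4.76 FPKM in WT and 10.9 and 3.70 in cKO 2-cell embryos (log2 fold change 0.44, SE 0.46, adjusted p = 0.509), with its cKO libraries on either side of WT, and it was called higher without cKO 2-cell replicate 2 (adjusted p = 0.0452). Fbxw7, the receptor for cyclin E and MYC, named with its values known, was at 6.07 and 5.47 FPKM in WT and 6.94 and 2.21 in cKO 2-cell embryos (log2 fold change -0.42, SE 0.45, adjusted p = 0.509). These p-values do not show that the groups were alike. The plot of the 27 genes called shows the size of each difference and where scaling placed it.

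**Figure D5:**
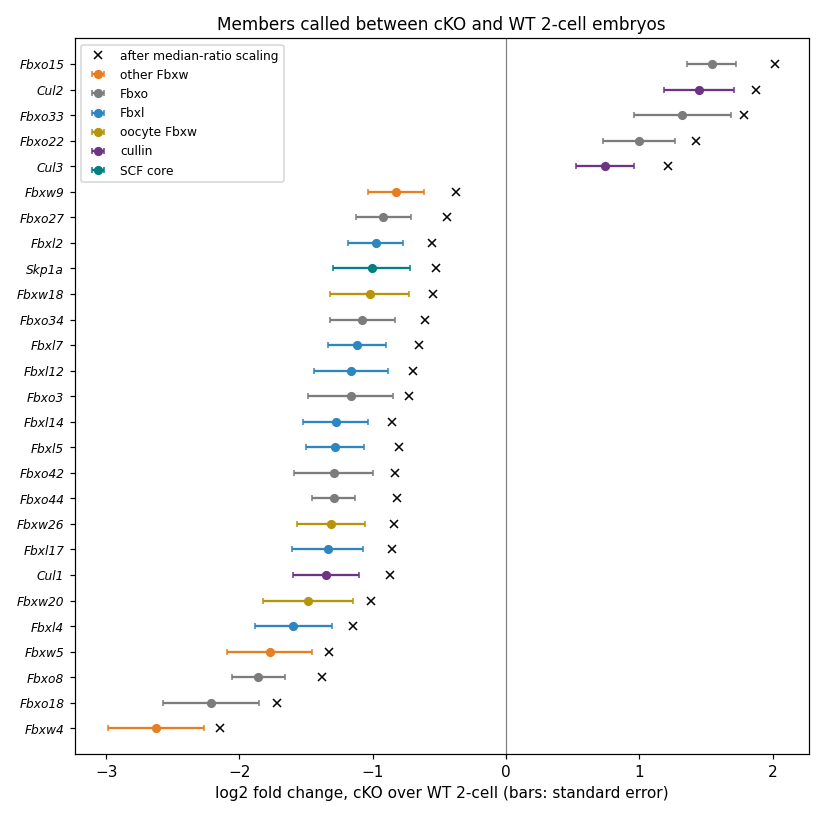
Log2 fold change (cKO over WT 2-cell, bars give the standard error) of the 27 genes called by limma, coloured by role. Crosses mark the value after median-ratio scaling. The bars rest on a spread pooled over all 4 groups, not on the 2-cell libraries alone. The 22 lower genes run from -2.62 (Fbxw4) to -0.82 (Fbxw9) and the 5 higher ones from 0.74 (Cul3) to 1.54 (Fbxo15), and scaling moved each to the right with no change of side.

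Genes that work with these subunits were counted from lists of the other cullin-RING ligase parts, none of which was called in zygotes. Their counts are to be read against the shares of all genes, of which 34.2% rose and 15.5% fell between the WT stages, and 6.16% were higher and 24.6% lower in cKO 2-cell embryos. Of 10 other core subunits and E2 enzymes, 3 rose and 1 fell between the WT stages, and 3 were higher and 4 lower in cKO 2-cell embryos. Rnf7, the RING partner of CUL5, was at 256 and 209 FPKM in WT and 557 and 587 in cKO 2-cell embryos (log2 fold change 1.30, SE 0.19, adjusted p = 0.00589). Ube2l3, the E2 that serves Ariadne-type ligases, was at 47.9 and 35.4 FPKM in WT and 142 and 242 in cKO 2-cell embryos (log2 fold change 2.14, SE 0.30, adjusted p = 0.00518). Both were higher in both cKO libraries. Of 11 neddylation genes, 3 rose and 4 fell between the WT stages, and 0 were higher and 5 lower in cKO. Dcun1d4, a helper of NEDD8 ligation, was at 5.93 and 6.37 FPKM in WT and 1 and 1.03 in cKO 2-cell embryos (log2 fold change -1.83, SE 0.19, adjusted p = 0.00235). Senp8, a NEDD8 protease, was at 9.63 and 9.30 FPKM in WT and 3.35 and 2.89 in cKO 2-cell embryos (log2 fold change -1.35, SE 0.20, adjusted p = 0.00561). Of 12 COP9 signalosome, CAND and related genes, 6 rose and 3 fell between the WT stages, and 1 was higher and 2 lower in cKO. Cops7b was at 81.4 and 78.3 FPKM in WT and 38.5 and 38.3 in cKO 2-cell embryos (log2 fold change -1.04, SE 0.24, adjusted p = 0.0229). Cops6, another signalosome subunit, was at 105 and 105 FPKM in WT and 228 and 244 in cKO 2-cell embryos (log2 fold change 1.16, SE 0.29, adjusted p = 0.0278). These calls were lost without either WT 2-cell library or cKO 2-cell replicate 2 for Cops7b (adjusted p = 0.052 to 0.0906) and without any one 2-cell library for Cops6 (0.0593 to 0.12).

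The receptors and adaptors of the other cullins were counted in the same way, to be read against the same shares. Of 28 CUL2 and CUL5 adaptors, 16 rose and 0 fell in WT, and 2 were higher and 8 lower in cKO 2-cell embryos. Socs6, a SOCS-box receptor, was at 42.8 and 63.5 FPKM in WT and 9.62 and 12.3 in cKO 2-cell embryos (log2 fold change -2.16, SE 0.28, adjusted p = 0.00415). Asb6, an ankyrin and SOCS-box receptor, was at the floor in all 4 zygote libraries and at 17.3 and 10.9 FPKM in WT and 1.60 and 4.21 in cKO 2-cell embryos (log2 fold change -2.0, SE 0.37, adjusted p = 0.0109), a call lost without WT 2-cell replicate 1 (adjusted p = 0.0717). Of 31 CUL3 BTB adaptors, 13 rose and 4 fell in WT, and 2 were higher and 9 lower in cKO. Klhl8 was at 224 and 201 FPKM in WT and 44.3 and 37.5 in cKO 2-cell embryos (log2 fold change -2.35, SE 0.18, adjusted p = 0.00108). Klhl25, also a Kelch-BTB gene, was at 5.14 and 5.49 FPKM in WT and 1.04 and 1 in cKO 2-cell embryos (log2 fold change -1.65, SE 0.15, adjusted p = 0.00168), and neither had overlapping groups. Of 24 CUL4 adaptors, 5 rose and 5 fell in WT, and 1 was higher and 3 lower in cKO. Rfwd2 (COP1) was at 113 and 113 FPKM in WT and 48.4 and 51.2 in cKO 2-cell embryos (log2 fold change -1.17, SE 0.17, adjusted p = 0.00559). Dcaf13, a nucleolar WD40 protein, was at 94 and 69.1 FPKM in WT and 236 and 188 in cKO 2-cell embryos (log2 fold change 1.37, SE 0.22, adjusted p = 0.00736). The calls of the other genes named from these lists held with each library left out. Among them, Dcun1d4 and Klhl25 were at or near the floor in cKO 2-cell embryos, which understates their spread.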

How the data were processed

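RNA-seq libraries (Smart-seq2 with oligo-dT priming, 10 embryos each) were analysed for 4 groups of 2. Per the labels and the study's methods, the authors trimmed reads to 50 bp, mapped them to mm9 with TopHat2 2.1.1 and deposited FPKM from Cufflinks 2.2.1, with values under 1 set to 1. The gene annotation is not given in the sources used here. FPKM carries no counts, so depth is unknown and no counting interval can be given.

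Here limma 3.58.1 (R 4.3.3, trend in the prior) was run on log2(FPKM + 1). It fitted 1 model of 4 groups with 4 residual degrees of freedom. Benjamini-Hochberg adjustment was over 14392 genes at 0.05. A run on simulated data was also made, but its outcome is not given here, so no conclusion is drawn from it. The authors' 3-fold rule was applied to group means. Sequences and 50-base words came from GENCODE M1 (mm9), promoters from RefSeq (GRCm38.p6).

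Named were all cullins, Skp1a, Rbx1, Skp2, Btrc and the oocyte-type Fbxw genes and Fbxw17, the 6 largest called changes per direction and contrast, in zygotes the 3 smallest p per direction, the 5 highest levels, interaction calls, and 2 genes of each other list. The members and lists were chosen with earlier results of these data known. Alternatives were other pseudocounts, a mean FPKM of at least 5, median-ratio scaling, a replicate block, weights per group, fits to 4 libraries and leaving out each library. The 7 ChIP-seq samples were not used here.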

Additional observations from a re-analysis of the deposited data

Results flagged for a closer look

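The genotype difference itself differed between the 2-cell stage and the zygote for 5 of the 79 genes by the interaction term in limma (6.33%, against 11.8% of all genes). Cul2 had the largest positive difference (log2 fold change 1.60, SE 0.37, adjusted p = 0.0451), with 9.18 and 9.72 FPKM in WT and 7.83 and 9.03 in cKO zygotes, and 12.6 and 16.7 in WT and 50.1 and 34 in cKO 2-cell embryos. For Fbxo15 the difference was also positive (log2 fold change 1.58, SE 0.26, adjusted p = 0.0208), with zygote libraries at 35 and 31.3 FPKM in WT and 32.2 and 32.3 in cKO. Fbxo18 had the largest negative difference (log2 fold change -2.22, SE 0.51, adjusted p = 0.044), with zygote libraries at 29.3 and 30.4 FPKM in WT and 30.6 and 29.5 in cKO. Fbxo8 (log2 fold change -1.89, SE 0.28, adjusted p = 0.0165) and Fbxo44 (log2 fold change -1.29, SE 0.23, adjusted p = 0.0248) were negative too. The zygote groups of Fbxo44 were all at the floor, so that its value is that of the 2-cell stage alone.

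All 5 lost this call in each of the 4 fits that left out a zygote library (adjusted p = 0.0702 to 0.172). Cul2 lost it also without WT 2-cell replicate 1 (0.0881) or 2 (0.0538), and Fbxo18 without WT 2-cell replicate 1 (0.113) or 2 (0.0697). Without either cKO 2-cell library more genes of the set were called, but the share of all genes called in those fits is not given here.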

How the results depend on the processing

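In zygotes the counts stayed at 0 in each alternative run that kept both libraries of every group. Usp16 itself was not called there in the main fit (log2 fold change -3.21, adjusted p = 0.191, limma). Counts of 0 therefore do not show that these genes were unchanged. The counts of genes falling and rising between the WT stages stayed within 1.5 times (16 to 29 and 15 to 24 over the fits that left out 1 library). Genes lower in cKO 2-cell embryos (22) numbered 10 after median-ratio scaling, 2 with weights per group, 0 with only the 4 libraries compared (24 at an unadjusted p under 0.05), and 11 to 28 over the fits that left out 1 library. Genes higher (5) numbered 10 after scaling, 3 with the replicate block, 1 with weights, 0 with only 4 libraries (5 unadjusted), and 2 to 10 with 1 library left out. Interaction calls (5) numbered 3 after scaling, 3 with the block, 2 with weights, and 0 to 24 with 1 library left out (0 without any one zygote library, where 12 to 21 negative and 2 to 4 positive differences had an unadjusted p under 0.05). By the 3-fold rule, the 10 lower became 5 with a pseudocount of 1 added, 29 at a 2-fold threshold, 5 where each library had to pass, 3 after scaling and 6 (of 55) with a mean FPKM of at least 5, and 10 to 15 with 1 library left out. The 0 higher became 5 at 2-fold, 4 after scaling and 0 to 2 with 1 library left out. Deviations of replicate 1 from its group mean correlated at 0.50 between zygote genotypes, -0.24 between 2-cell genotypes and 0.11 between the WT stages. Replicate numbers thus went together in zygotes but not at the 2-cell stage. Whether they stand for a shared batch was not tested. A crossed pairing, chosen after seeing the data, gave 26 lower, 6 higher and 8 interaction calls. Of 1037 values of named genes under the alternatives, 867 kept direction and call, 124 lost and 37 gained a call, and 9 changed sign, none of them called: after scaling Cul4b and Fbxw22 at the 2-cell stage (0.22 and 0.42) and Cul4a between the WT stages (-0.13), and with 1 library left out Btrc (-0.23 to 1.10) and Fbxw22 (-0.25 to 0.17) at the 2-cell stage, Cul4a between the WT stages (-0.17 to 0.44) and Fbxo10 in zygotes (-0.040 to 0.27). Weights per group gave the cKO 2-cell libraries 0.20 and the cKO zygotes 4.06. A low weight stands for a wide spread. By these weights, the spread pooled in the main fit was narrower than that of the cKO 2-cell libraries. With 1 library left out, the lone library is assumed to vary like the other groups. The cause of these changes was not tested. For these alternatives the shares of all genes called are not given, so the counts of members cannot be set against them. Depth is unknown, and 2 libraries per group limit precision.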
